A study of Mus musculus with 9 samples.

Results

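The collagen chains are the genes whose deposited symbol consists of Col, a type number, the letter a and a chain number. This rule uses names alone and found 44 of the 34745 genes in the deposited table, on 15 chromosomes. RNA was sequenced from spinal cord of mice with a complete transection at T9, in 3 groups of 3 libraries each: day 0, day 3 and day 21 after injury. The day 0 libraries carry N in their titles, which the labels do not explain, and were taken as day 0 because the stated times are 0, 3 and 21 days. No sham-operated group, other treatment, strain, genotype or age is given, nor is the length of cord taken. Whether each library is a separate animal is not stated, and the p-values therefore describe the spread among these libraries, which may be technical only.

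Collagens are proteins in which a trio of chains winds into a triple helix after prolines and lysines have been hydroxylated. Fibrillar types assemble into banded cables that carry tension, type IV forms the sheet-like network of basement membranes around vessels and under the meninges, and other types decorate fibrils, form beaded filaments or span the cell membrane. In the healthy cord, fibrillar collagen lies mainly in the meninges, around large vessels and in nerve roots, and after a penetrating injury fibroblast-lineage cells deposit it in the lesion core.

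All 44 chains had at least 1 count, and 42 passed the expression filter and were tested, Col10a1 and Col17a1 being left out. Total counts per library were 14299679 to 24022923. The level used to set chains side by side is FPKM, fragments scaled by gene length and library total. Ranks, shares and ratios between chains therefore depend on the gene lengths used. Differences between days are log2 fold changes from edgeR on the counts, with a call where p, adjusted over 16494 genes by Benjamini and Hochberg, was under 0.05. By their highest group mean, 19 chains reached 5 FPKM, 12 lay between 1 and 5 FPKM and 13 were under 1 FPKM. In bulk tissue, a change in the number of cells of a type and a change in RNA per cell cannot be told apart.

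Neuron, astrocyte and oligodendrocyte markers were present in all 9 libraries, as the label spinal cord implies. Of 74 markers in 12 cell type lists, Bglap alone was at 0 in any library. A pair of libraries stood apart from their replicates. Day 21 replicate 2 scattered from the other day 21 libraries by a median of 116 and 135 times the counting noise over genes with at least 1000 counts in the pair, against 5.63 times between those others. Day 0 replicate 1 scattered from the other day 0 libraries by 18.7 and 18.2 times, against 2.11 times between them. The 42 tested chains in day 21 replicate 2 differed from the other day 21 libraries by a median log2 difference of -0.085, between -3.58 for Col25a1 and 0.773 for Col13a1. Counts of calls are therefore also given without these libraries.

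Summed over the chains, collagen RNA was 9.26-fold more abundant at day 3 than at day 0 and 3.94-fold more abundant at day 21 than at day 0. The chains summed to 75.6 ± 1.39 FPKM at day 0, 700.3 ± 3.2 FPKM at day 3 and 298.2 ± 14.4 FPKM at day 21 (SD, n = 3 each). Their share of all counts was 0.0606 to 0.0629% at day 0, 0.583 to 0.589% at day 3 and 0.247 to 0.266% at day 21. The groups did not overlap in either measure.

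At day 3 against day 0, 35 of the 42 tested chains rose and 0 fell, where 24.8% of all tested genes rose and 19.5% fell. The median log2 fold change of the chains was 1.70, against 0.008 over all genes. At day 21 against day 0, 33 chains rose and 0 fell, where 29.2% of all tested genes changed, 17.9% up and 11.3% down, and the median was 1.44 against 0.018. DESeq2 called 34 chains higher and 0 lower in both comparisons, and at an unadjusted edgeR p under 0.05 there were 36 higher and 1 lower at day 3, and 34 higher and 0 lower at day 21. Without day 21 replicate 2, the shared estimate of the spread changed and 38 chains were called higher and 3 lower (Col11a2, Col19a1 and Col25a1) at day 3, and 36 higher and 0 lower at day 21. The chains gained as higher were Col9a2, Col6a6 and Col26a1 at day 3, and Col6a6, Col19a1 and Col23a1 at day 21. Without both libraries that stood apart, a setting chosen after seeing the data, the counts were 34 higher and 2 lower (Col19a1 and Col25a1) at day 3, and 36 higher and 0 lower at day 21. Both comparisons share the day 0 libraries.

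Between the injured times the chains parted. At day 21 against day 3, 18 chains fell and 2 rose, where 16.1% of all tested genes fell and 11.7% rose, with a median log2 fold change of -0.289 for the chains and 0.016 for all genes. Of the chains, 17 were called higher at both times against day 0 and lower at day 21 than at day 3, 15 were called higher at both times with no call between them, and Col6a5 was called higher in all 3 comparisons. Of the other 9 tested chains, Col2a1 and Col23a1 rose at day 3 and were not called at day 21 against day 0, Col11a2 was called only between the injured times, and 6 were never called. Without day 21 replicate 2, 21 chains were called lower, Col4a6, Col6a1 and Col6a2 being added, and 5 higher, Col19a1, Col24a1 and Col25a1 being added. Leaving out 1 other library ended the Col11a2 or Col12a1 call, as given with those chains. Without both libraries that stood apart, 22 chains were called lower and 5 higher.

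**Figure D1:**
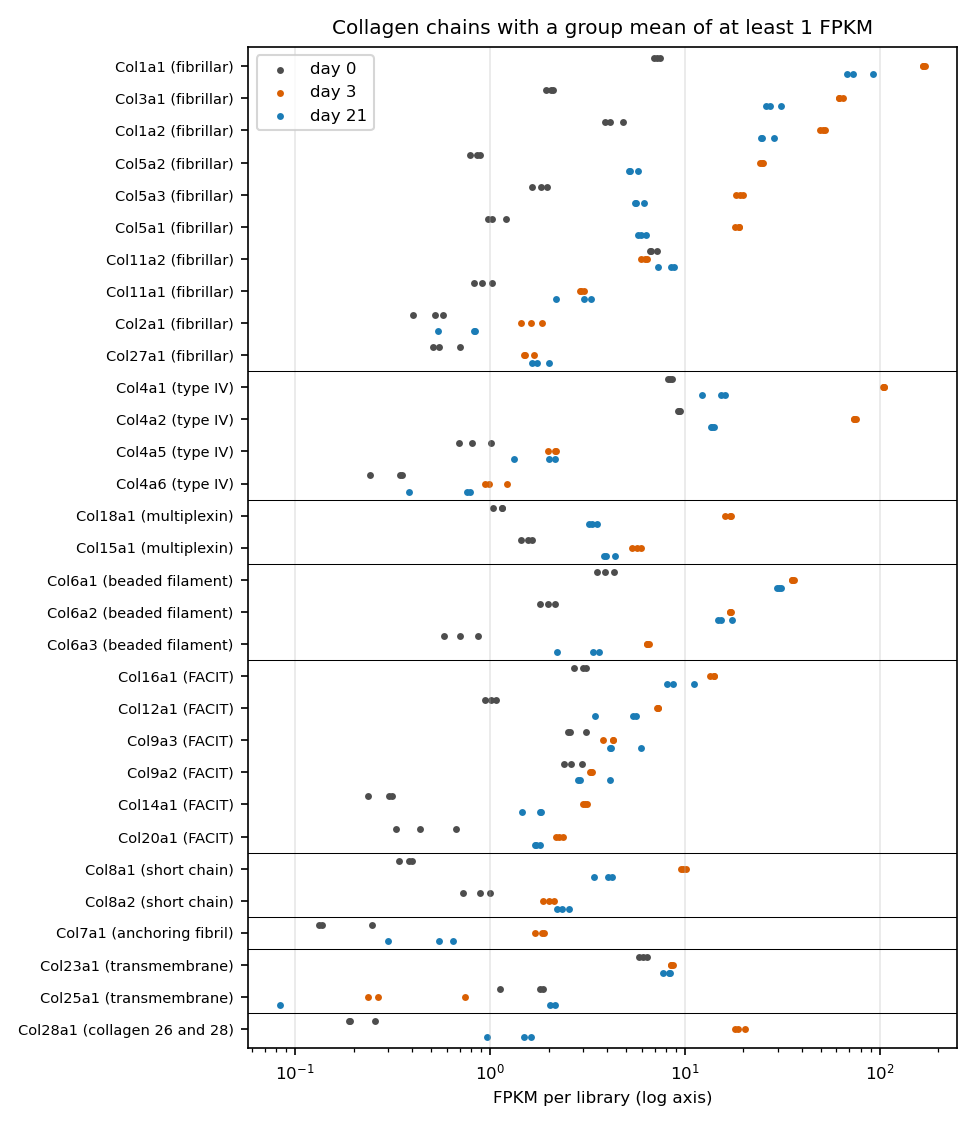
FPKM in each library (points, log axis) for the 31 chains with a group mean of at least 1 FPKM, grouped by class. For Col1a1, Col3a1, Col4a1 and Col28a1 the 3 day 3 libraries lie right of all others, while Col11a2, Col23a1 and Col9a2 lie close together at all times.

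The fibrillar chains took a larger share of summed collagen FPKM than type IV in every library, at 34.2 to 35.4% at day 0, 50.9 to 51.2% at day 3 and 52.7 to 58.2% at day 21. All chains outside these classes together took more than the fibrillar chains at day 0, 39.8 to 40.3%, and less at day 3 and day 21. Of the 11 fibrillar chains, 10 rose at day 3 and 9 at day 21 against day 0, with median log2 fold changes of 3.35 and 1.55. Then 7 fell and 1 rose at day 21 against day 3, with a median of -1.18. Their summed FPKM was 26.3 ± 0.858 at day 0, 357.4 ± 2.66 at day 3 and 163.5 ± 17.1 at day 21.

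Col1a1 (ENSMUSG00000001506, chr11:94936224-94953042, plus strand, GRCm38) encodes the main chain of type I collagen, the commonest fibril of scar, tendon and bone. It had 7.18, 7.46 and 6.96 FPKM at day 0, 170.5, 167 and 166.9 FPKM at day 3, and 73.4, 92.4 and 68.2 FPKM at day 21. Day 3 libraries were highest, day 21 libraries intermediate and day 0 libraries lowest, with no overlap. The log2 fold change was 4.49 (SE 0.13, edgeR adjusted p = 6.22e-08) at day 3 against day 0 and 3.31 (SE 0.12, edgeR adjusted p = 7.82e-07) at day 21 against day 0. Between the injured times, day 21 against day 3, it was -1.18 (SE 0.11, edgeR adjusted p = 0.000119).

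Its partner Col1a2 (ENSMUSG00000029661, chr6:4504814-4541544, plus strand) had 4.82, 4.15 and 3.89 FPKM at day 0, 52.4, 49.4 and 51.4 FPKM at day 3, and 25, 28.8 and 24.7 FPKM at day 21. The order of the days was that of Col1a1, again without overlap, at a smaller fold. Col1a2 rose at day 3 by 3.52 (SE 0.11, edgeR adjusted p = 7.52e-08) on the log2 scale and at day 21 by 2.49 (SE 0.10, edgeR adjusted p = 8.35e-07), both against day 0. The FPKM ratio of Col1a1 to Col1a2 was 1.49 to 1.80 in day 0 libraries, 3.24 to 3.38 in day 3 libraries and 2.76 to 3.21 in day 21 libraries. The day 0 ratios lay below all of those at both injured times.

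Col3a1 forms type III collagen, a homotrimer found with type I in fibrils of stretchable tissue and young scar. It had 2.1, 2.07 and 1.94 FPKM at day 0, 62, 65 and 61.8 FPKM at day 3, and 26, 31 and 27.5 FPKM at day 21. Its log2 fold change at day 3 against day 0, 4.9 (SE 0.11, edgeR adjusted p = 3.33e-08), was the largest of the fibrillar chains, and at day 21 against day 0 it was 3.66 (SE 0.10, edgeR adjusted p = 2.01e-07), the largest of all tested chains there. Relative to Col1a1, Col3a1 stood at an FPKM ratio of 0.283 ± 0.00833 at day 0, 0.374 ± 0.0135 at day 3 and 0.364 ± 0.035 at day 21.

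Type V chains start fibrils and limit their width. Col5a2 lies tail to tail with Col3a1 on chromosome 1, chr1:45374321-45503282, minus strand against chr1:45311538-45349706, plus strand, with 24614 bases between them. It had 0.886, 0.86 and 0.792 FPKM at day 0, 25.3, 24.9 and 24.3 FPKM at day 3, and 5.24, 5.15 and 5.72 FPKM at day 21. Its log2 fold change at day 3 against day 0 was 4.82 (SE 0.11, edgeR adjusted p = 3.33e-08), close to that of its neighbour, and at day 21 against day 3 it was -2.28 (SE 0.10, edgeR adjusted p = 2.22e-06), beside -1.23 for Col3a1.

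Col5a1 had 1.03, 1.21 and 0.982 FPKM at day 0, 19, 18.1 and 18.9 FPKM at day 3, and 6.29, 5.78 and 5.96 FPKM at day 21. Against day 0 it rose by 4.07 (SE 0.13, edgeR adjusted p = 8.85e-08) on the log2 scale at day 3 and by 2.36 (SE 0.12, edgeR adjusted p = 2.38e-06) at day 21. Col5a3 had 1.96, 1.65 and 1.82 FPKM at day 0, 18.4, 19.3 and 19.8 FPKM at day 3, and 5.62, 6.19 and 5.53 FPKM at day 21. Against day 0, Col5a3 rose by 3.35 (SE 0.11, edgeR adjusted p = 8.89e-08) at day 3 and by 1.55 (SE 0.10, edgeR adjusted p = 9.1e-06) at day 21. From day 3 onward, at day 21 against day 3, the log2 fold changes were -1.71 for Col5a1 and -1.8 for Col5a3 (edgeR adjusted p = 2.09e-05 and 7.33e-06). The type I and III chains lay between -1.23 and -1.04 in that comparison, and the difference between chains was not tested. The ratio of Col5a1 to Col5a2 was 1.16 to 1.41 at day 0, 0.725 to 0.778 at day 3 and 1.04 to 1.2 at day 21, with day 3 below both other days.

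Type II and type XI chains build the fibrils of cartilage and the vitreous. Col11a2 had 7.24, 6.6 and 6.7 FPKM at day 0, 6.38, 5.95 and 6.27 FPKM at day 3, and 8.54, 8.76 and 7.29 FPKM at day 21. At day 0 it overlapped Col1a1, and the 2 chains shared the top of the fibrillar FPKM values there. In counts, which are not scaled by gene length, Col1a2 lay above both at day 0. It had 1876, 1060 and 1112 counts, against 1196, 815 and 850 for Col1a1 and 1362, 815 and 924 for Col11a2. The log2 fold change of Col11a2 at day 3 against day 0 was -0.2 (SE 0.10, edgeR adjusted p = 0.152). Col11a2 rose at day 21 against day 3 by 0.33 (SE 0.10, edgeR adjusted p = 0.0399), and 1 day 21 library at 7.29 FPKM lay just above the day 0 range. That call was lost in 6 of the 9 fits that left out 1 library, with adjusted p up to 0.148 without day 3 replicate 2, and its adjusted p over all alternatives ran between 0.00631 and 0.148. The libraries whose removal ended it were day 0 replicates 2 and 3 (0.0677 and 0.0693), day 3 replicates 1 and 3 (0.101 and 0.114), and day 21 replicate 1 (0.117). Without day 21 replicate 2, Col11a2 was also called lower at day 3 against day 0 (adjusted p = 0.0454).

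Its partner Col11a1 averaged 0.924 ± 0.0991 FPKM at day 0, 2.97 ± 0.0769 FPKM at day 3 and 2.85 ± 0.594 FPKM at day 21, and rose at both times against day 0. The ratio of Col11a1 to Col11a2 was 0.115 to 0.153 at day 0, 0.462 to 0.512 at day 3 and 0.249 to 0.456 at day 21. Col2a1, the chain of type II collagen, averaged 0.499 ± 0.0871 FPKM at day 0, 1.64 ± 0.198 FPKM at day 3 and 0.733 ± 0.167 FPKM at day 21. It rose at day 3 against day 0 by 1.66 (SE 0.21, edgeR adjusted p = 0.000191) on the log2 scale and fell by 1.23 (SE 0.20, edgeR adjusted p = 0.00251) at day 21 against day 3, with a log2 fold change of 0.43 (SE 0.21, edgeR adjusted p = 0.165) at day 21 against day 0. Col27a1 averaged 0.589 ± 0.103 FPKM at day 0, 1.57 ± 0.108 FPKM at day 3 and 1.8 ± 0.19 FPKM at day 21 and was called higher at both times against day 0.

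Upstream sequences are shown for the chains whose log2 fold change at day 3 against day 0 was at least 4 and for which a RefSeq window was given, so that genes that moved together can be compared in sequence. They are the 250 bases before the RefSeq start on GRCm38.p6, written 5′ to 3′ on the gene's strand. Capitals mark the letters of the TATA box (TATAAA), the CAAT motif (CCAAT), the GC box (GGGCGG) and the AP-1 motif (TGANTCA) on either strand. Matches were marked at any distance from the start, so TATAAA here need not be a working TATA box. The windows are chr1:45311288-45311537, plus strand for Col3a1, chr2:27886175-27886424, plus strand for Col5a1, chr16:57754738-57754987, minus strand for Col8a1 and chr6:8192618-8192867, minus strand for Col28a1, and none overlaps an exon of GENCODE M21.
Col3a1: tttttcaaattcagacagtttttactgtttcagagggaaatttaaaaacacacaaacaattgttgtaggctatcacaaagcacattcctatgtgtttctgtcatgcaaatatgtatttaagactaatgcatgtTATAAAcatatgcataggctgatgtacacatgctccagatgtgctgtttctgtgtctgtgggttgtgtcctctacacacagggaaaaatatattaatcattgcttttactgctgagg
Col5a1: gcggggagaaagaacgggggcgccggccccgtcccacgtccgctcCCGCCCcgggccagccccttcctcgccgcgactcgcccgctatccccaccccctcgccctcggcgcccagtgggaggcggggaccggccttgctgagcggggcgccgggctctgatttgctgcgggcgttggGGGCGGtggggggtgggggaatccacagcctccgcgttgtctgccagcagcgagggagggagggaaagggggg
Col8a1: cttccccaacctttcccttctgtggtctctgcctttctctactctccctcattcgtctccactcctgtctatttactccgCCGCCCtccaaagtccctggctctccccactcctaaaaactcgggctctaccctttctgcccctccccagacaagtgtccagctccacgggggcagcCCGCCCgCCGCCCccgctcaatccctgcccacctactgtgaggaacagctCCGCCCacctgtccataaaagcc
Col28a1: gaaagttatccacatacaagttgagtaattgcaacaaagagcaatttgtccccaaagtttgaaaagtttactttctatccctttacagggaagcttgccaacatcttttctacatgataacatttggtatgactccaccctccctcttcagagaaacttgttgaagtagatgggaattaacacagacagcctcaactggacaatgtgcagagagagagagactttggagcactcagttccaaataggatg
The Col3a1 window holds TATAAA, those of Col5a1 and Col8a1 hold GGGCGG, and that of Col28a1 holds none of these letters, so no motif of the 4 was found in all 4 windows. For Col1a1 and Col5a2, which also passed 4 on that scale, no window was used here. Among the 38 windows of the 35 chains that had one, 57.9% held GGGCGG, against 32.7% of all 32851 windows. For TATAAA the shares were 13.2% and 12.4%, for CCAAT 34.2% and 33.8%, and for TGANTCA 2.63% and 6.75%. A match is a description of letters and not of binding.

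**Figure D2:**
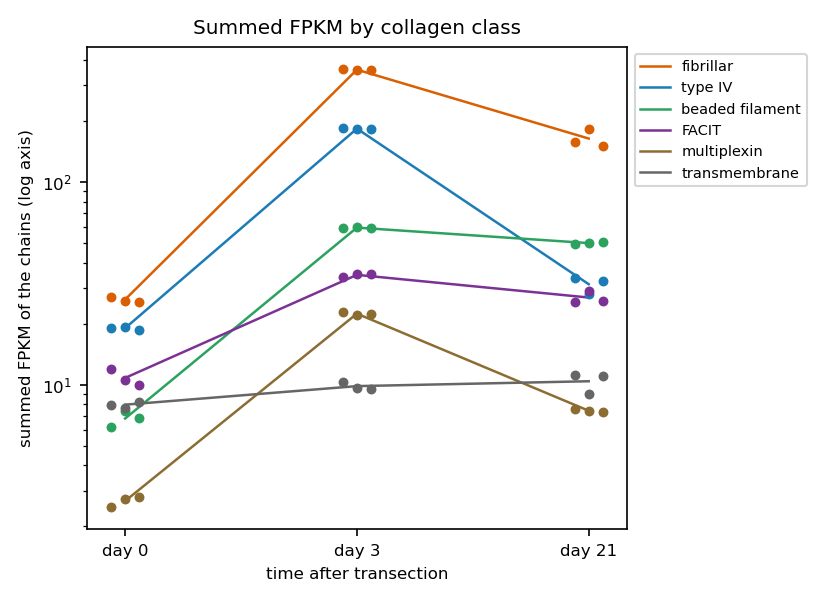
Summed FPKM (log axis) of the chains of 6 collagen classes at day 0, day 3 and day 21, with 1 point per library and lines through the group means. Fibrillar and type IV sums lie near each other at day 0 and are apart at day 21 (163.5 ± 17.1 against 31.3 ± 2.94 FPKM). The beaded filament sum is 59.5 ± 0.581 FPKM at day 3 and 49.9 ± 0.384 FPKM at day 21.

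Most genes of the fibroblast marker list rose at both times against day 0, as most fibrillar chains did. The median log2 fold change of the list was 2.00 at day 3 and 1.75 at day 21, beside 3.35 and 1.55 for the fibrillar chains. Of its 10 genes 9 rose at day 3 and 8 at day 21, and Thy1, which neurons also express, fell at both times. Summed without Thy1 the list lay at 38.7 to 40.6 FPKM at day 0, 307 to 312.3 FPKM at day 3 and 186.8 to 231.8 FPKM at day 21. With Thy1 it lay at 541.6 to 701.2, 705.2 to 728.2 and 619.8 to 687.9 FPKM. Most of the sum without Thy1 at day 3 and at day 21 was Dcn. Dcn and Lum also stand in the list of leucine-rich proteoglycans below. Of 6 meningeal markers, 5 rose at each time, and they summed to 9.33 to 9.92 FPKM at day 0, 35.3 to 45.6 FPKM at day 3 and 23.0 to 38.4 FPKM at day 21. Macrophage markers (5 of 5 higher at both times) summed to 38.5 to 40.8, 689.7 to 694.8 and 494 to 718.4 FPKM. No gene of these lists was at 0 in any library, and their part in the collagen values was not tested.

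Type IV collagen stood 9.63-fold above day 0 at day 3 and 1.65-fold above day 0 at day 21 in summed FPKM, beside 13.6-fold and 6.23-fold for the fibrillar chains. All 6 type IV chains rose at day 3 and at day 21 against day 0, with median log2 fold changes of 1.49 and 0.940, and Col4a1 and Col4a2 fell at day 21 against day 3, where the median was -0.527. The summed FPKM was 19.0 ± 0.32 at day 0, 183 ± 1.15 at day 3 and 31.3 ± 2.94 at day 21.

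Col4a1 (ENSMUSG00000031502, chr8:11198423-11312826, minus strand) and Col4a2 (ENSMUSG00000031503, chr8:11312805-11449287, plus strand) encode the network chains found in nearly all basement membranes. Their loci lie head to head and overlap by 22 bases. Col4a1 had 8.18, 8.56 and 8.44 FPKM at day 0, 104.7, 104.1 and 105.6 FPKM at day 3, and 16, 12.2 and 15.3 FPKM at day 21, and Col4a2 had 9.29, 9.41 and 9.18 FPKM at day 0, 75.9, 74.2 and 73.9 FPKM at day 3, and 14.2, 13.7 and 13.8 FPKM at day 21. In both genes day 3 libraries were far above all others, and day 21 libraries lay a little above day 0 libraries without overlap. At day 3 against day 0 the log2 fold change was 3.59 (SE 0.14, edgeR adjusted p = 1.65e-07) for Col4a1 and 2.95 (SE 0.09, edgeR adjusted p = 7.52e-08) for Col4a2. The day 21 values against day 0 were 0.67 (SE 0.12, edgeR adjusted p = 0.0038) for Col4a1 and 0.46 (SE 0.09, edgeR adjusted p = 0.00389) for Col4a2. Against day 3, those at day 21 were -2.92 (SE 0.13, edgeR adjusted p = 2.64e-06) for Col4a1 and -2.5 (SE 0.09, edgeR adjusted p = 1.12e-06) for Col4a2, larger falls than in any tested chain but Col28a1. The FPKM ratio of Col4a1 to Col4a2 was 0.881 to 0.919 at day 0, 1.38 to 1.43 at day 3 and 0.892 to 1.13 at day 21, with day 3 above both other days.

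The other type IV chains occur in restricted membranes such as those of the kidney glomerulus, and they were scarce here. Col4a5 averaged 0.84 ± 0.16 FPKM at day 0, 2.12 ± 0.107 FPKM at day 3 and 1.83 ± 0.445 FPKM at day 21. Col4a6 averaged 0.314 ± 0.0625 FPKM at day 0, 1.06 ± 0.155 FPKM at day 3 and 0.646 ± 0.226 FPKM at day 21. Col4a3 and Col4a4 stayed at or under 0.344 FPKM in every library. Each of these pairs lies head to head, Col4a4 and Col4a3 on chromosome 1 with 71 bases between them and Col4a6 and Col4a5 on the X chromosome with 1308 bases between them. The log2 fold changes at day 3 against day 0 were 1.28 for Col4a5, 1.7 for Col4a6, 1.21 for Col4a3 and 1.28 for Col4a4 (edgeR adjusted p = 0.000961, 0.00128, 0.00947 and 0.00785). At day 21 the calls of Col4a6 and Col4a3 were weak, at adjusted p = 0.043 and 0.0429. Each was lost on leaving out any 1 library other than day 21 replicate 2, with adjusted p up to 0.143 for Col4a6 and 0.14 for Col4a3. The Col4a4 call at day 21 was lost without day 0 replicate 1 or 3 (0.0742 and 0.0722) and without day 21 replicate 1 or 3 (0.0501 and 0.0664).

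Col18a1 and Col15a1, the multiplexins, sit in the basement membrane zone, and a fragment of the Col18a1 product is endostatin. Col18a1 had 1.04, 1.16 and 1.16 FPKM at day 0, 17.2, 16 and 17 FPKM at day 3, and 3.24, 3.55 and 3.34 FPKM at day 21. It rose by 3.85 (SE 0.12, edgeR adjusted p = 7.05e-08) on the log2 scale at day 3 and by 1.47 (SE 0.11, edgeR adjusted p = 1.62e-05) at day 21, both against day 0, and its log2 fold change at day 21 against day 3 was -2.38 (SE 0.11, edgeR adjusted p = 2.58e-06). Col15a1 had 1.45, 1.56 and 1.65 FPKM at day 0, 5.69, 5.98 and 5.36 FPKM at day 3, and 4.36, 3.86 and 3.96 FPKM at day 21. The log2 fold change of Col15a1 was 1.81 (SE 0.12, edgeR adjusted p = 2.84e-06) at day 3 against day 0 and -0.56 (SE 0.11, edgeR adjusted p = 0.00679) at day 21 against day 3. Col15a1 had smaller log2 fold changes than Col18a1 in all 3 comparisons, a difference that was not tested.

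Partners of type IV in basement membranes, laminin chains, nidogens and perlecan, were counted from a list of 17 genes. Of these 13 rose and 0 fell at day 3 against day 0 (median log2 fold change 1.79), 9 rose and 0 fell at day 21 against day 0 (0.423), and 0 rose and 14 fell at day 21 against day 3 (-1.18). Nid2, a nidogen that links laminin to type IV collagen, averaged 14.9 ± 0.32 FPKM at day 3, against 1.64 ± 0.0884 FPKM at day 0, a log2 fold change of 3.12 (SE 0.14, edgeR adjusted p = 3.67e-07). Hspg2, which encodes perlecan, averaged 23.6 ± 0.575 FPKM at day 3 against 2.76 ± 0.33 FPKM at day 0, with a log2 fold change of 3.04 (SE 0.25, edgeR adjusted p = 1.4e-05). Lamb1, a laminin beta chain, had a log2 fold change of -2.09 (SE 0.12, edgeR adjusted p = 9.5e-06) at day 21 against day 3, and Nid1, the other nidogen, one of -2.02 (SE 0.23, edgeR adjusted p = 0.000371).

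Most vessel markers rose at day 3, as the type IV chains did. For day 21 against day 0 the median log2 fold change was 0.032 for endothelial markers and 0.549 for pericyte and smooth muscle markers. That of the type IV chains was 0.940. Col4a1 and Col4a2, which held most of the type IV FPKM, lay at 0.67 and 0.46, on either side of the pericyte and smooth muscle median. Summed type IV FPKM was 1.65-fold that of day 0. Differences between these lists were not tested. Of 6 endothelial markers 5 rose at day 3 and 0 were called at day 21 against day 0, and they summed to 50.4 to 60.6 FPKM at day 0, 160.9 to 168.2 FPKM at day 3 and 50.5 to 69.9 FPKM at day 21. Of 8 pericyte and smooth muscle markers 6 rose at day 3 and 5 at day 21, and they summed to 47.0 to 48.5, 273.1 to 281.1 and 89.3 to 113.3 FPKM. Their median log2 fold change at day 3 against day 0 was 0.983, between 0.447 for Myh11 and 4.04 for Tagln. Tagln shares 67.9% of its exon bases with genes on the opposite strand. None of these 14 markers was at 0 in any library. Their part in the type IV values was not tested. A rise at day 3 and a fall from day 3 to day 21 was also found in the Schwann cell list, given with Col28a1.

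The balance between the classes differed between days. Fibrillar over type IV summed FPKM was 1.43, 1.34 and 1.37 at day 0, 1.96, 1.96 and 1.94 at day 3, and 4.68, 6.55 and 4.64 at day 21. The days did not overlap, and day 21 replicate 2 was the highest. The mean difference in the log2 ratio was 0.5 for day 3 against day 0, 1.92 for day 21 against day 0 and 1.42 for day 21 against day 3. Leaving out 1 library gave 0.481 to 0.527, 1.756 to 2.003 and 1.255 to 1.503 for the same differences. The differences against day 0 changed when type I and III collagen were left out. Without Col1a1, Col1a2 and Col3a1 the ratio was 0.670 ± 0.0282 at day 0, 0.412 ± 0.000662 at day 3 and 1 ± 0.0885 at day 21, so that day 3 lay below day 0 (log2 difference -0.703). Without these chains the difference was 0.576 for day 21 against day 0 and 1.28 for day 21 against day 3. Of the fibrillar chains then left, Col11a2 had the highest FPKM at day 0. Its means were 6.85 FPKM at day 0, 6.2 FPKM at day 3 and 8.2 FPKM at day 21. The type V chains, also left in, rose by 3.35 to 4.82 on the log2 scale at day 3 against day 0. The part of each chain in the ratio was not tested.

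**Figure D3:**
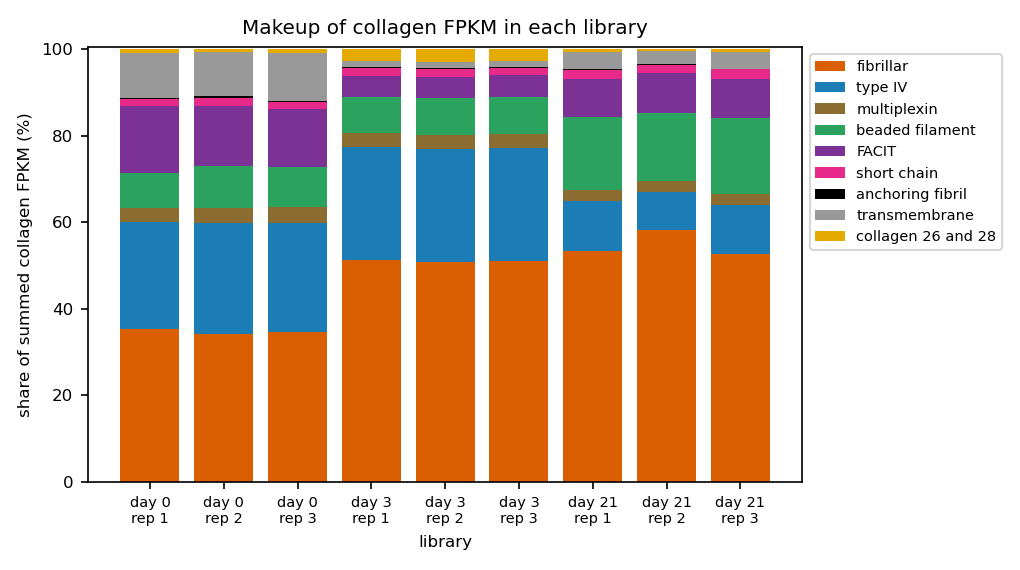
Share of summed collagen FPKM (%) taken by each class in each of the 9 libraries. Fibrillar chains take 34.7 ± 0.63% at day 0, 51.0 ± 0.152% at day 3 and 54.7 ± 3.03% at day 21, and type IV takes 25.1 ± 0.38%, 26.1 ± 0.126% and 10.5 ± 1.43%.

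Type VI chains form beaded filaments around cells and along basement membranes. Of these, Col6a1 and Col6a2 stood at day 21 near their day 3 level. The class sum was 59.5 ± 0.581 FPKM at day 3 and 49.9 ± 0.384 FPKM at day 21, without overlap. Of 6 chains 4 rose at day 3 and 4 at day 21 against day 0. Col6a1 and Col6a2 lie on the same strand of chromosome 10 with 85161 bases between them. Col6a1 had 3.55, 4.31 and 3.88 FPKM at day 0, 35.3, 36.4 and 35.4 FPKM at day 3, and 30.4, 29.7 and 31.2 FPKM at day 21. Col6a2 had 1.81, 1.98 and 2.16 FPKM at day 0, 17.2, 17.1 and 17 FPKM at day 3, and 15.4, 17.4 and 14.8 FPKM at day 21. The day 21 libraries of both genes lay close to the day 3 libraries and far above day 0.

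At day 3 against day 0 the log2 fold change was 3.13 (SE 0.12, edgeR adjusted p = 1.65e-07) for Col6a1 and 3.06 (SE 0.12, edgeR adjusted p = 1.87e-07) for Col6a2. The day 21 values against day 0 were 2.83 (SE 0.12, edgeR adjusted p = 8.35e-07) for Col6a1 and 2.87 (SE 0.12, edgeR adjusted p = 8.35e-07) for Col6a2. Neither passed the test at day 21 against day 3, with -0.3 (SE 0.11, edgeR adjusted p = 0.0685) for Col6a1 and -0.18 (SE 0.11, edgeR adjusted p = 0.254) for Col6a2. Without day 21 replicate 2 both were called lower (log2 fold changes of -0.269 and -0.237, adjusted p = 0.0293 and 0.0447). Their FPKM ratio was 1.80 to 2.17 at day 0, 2.05 to 2.13 at day 3 and 1.71 to 2.10 at day 21, overlapping between all days.

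Col6a3, the chain whose end fragment is called endotrophin, had 0.582, 0.872 and 0.698 FPKM at day 0, 6.39, 6.37 and 6.54 FPKM at day 3, and 3.38, 2.2 and 3.64 FPKM at day 21. It rose by 3.11 (SE 0.23, edgeR adjusted p = 7.81e-06) on the log2 scale at day 3 against day 0, like its partners, but fell by 1.13 (SE 0.22, edgeR adjusted p = 0.00506) at day 21 against day 3. The ratio of Col6a3 to Col6a1 was 0.164 to 0.202 at day 0, 0.175 to 0.185 at day 3 and 0.0742 to 0.117 at day 21, with day 21 below both other days. The beaded filament class took 9 ± 0.88% of collagen FPKM at day 0, 8.5 ± 0.099% at day 3 and 16.8 ± 0.874% at day 21.

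The alternative chains Col6a5, Col6a6 and Col6a4 lie in a row on chromosome 9 and were under 1 FPKM. Col6a5 had 0.0276, 0.0241 and 0.0215 FPKM at day 0, 0.0531, 0.0582 and 0.0763 FPKM at day 3, and 0.205, 0.254 and 0.358 FPKM at day 21, low in all libraries but without overlap between days. It was called higher in all 3 comparisons, and its rise at day 21 against day 3 was 2.04 (SE 0.29, edgeR adjusted p = 0.00101). Its day 3 call (adjusted p = 0.0206) was lost without day 0 replicate 2 (0.0523), day 0 replicate 3 (0.0614) or day 3 replicate 3 (0.0713). Col6a4 and Col6a6 were not called in any comparison.

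The FACIT chains (fibril-associated collagens with interrupted triple helices) attach to the surface of fibrils. Of 9 tested, 7 rose at day 3 and 7 at day 21 against day 0, and Col12a1, Col14a1 and Col16a1 fell at day 21 against day 3. Col16a1 had 3.11, 3.02 and 2.7 FPKM at day 0, 13.4, 14.1 and 14.2 FPKM at day 3, and 8.68, 11.2 and 8.15 FPKM at day 21. It was the most abundant FACIT chain at each day and rose by 2.19 (SE 0.13, edgeR adjusted p = 1.83e-06) on the log2 scale at day 3 and by 1.54 (SE 0.13, edgeR adjusted p = 4.07e-05) at day 21, both against day 0. It fell by 0.64 (SE 0.12, edgeR adjusted p = 0.0054) at day 21 against day 3.

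Col12a1, which binds type I fibrils in tissues under load, had 1.07, 0.943 and 1.01 FPKM at day 0, 7.26, 7.29 and 7.17 FPKM at day 3, and 5.43, 3.45 and 5.59 FPKM at day 21. Col12a1 had a log2 fold change of 2.79 (SE 0.19, edgeR adjusted p = 4.47e-06) at day 3 against day 0 and -0.65 (SE 0.18, edgeR adjusted p = 0.0253) at day 21 against day 3. This call was lost on leaving out any 1 day 3 library, with adjusted p = 0.0731, 0.0735 and 0.0707. Col14a1, a relative of Col12a1, averaged 0.285 ± 0.0413 FPKM at day 0, 3.08 ± 0.0795 FPKM at day 3 and 1.7 ± 0.205 FPKM at day 21, and its 3.38 at day 3 against day 0 was the largest log2 fold change of the class. Col20a1 averaged 0.48 ± 0.174 FPKM at day 0, 2.28 ± 0.101 FPKM at day 3 and 1.74 ± 0.0511 FPKM at day 21 and was called higher at both times against day 0.

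Type IX chains coat type II fibrils of cartilage. Col9a3 averaged 2.73 ± 0.32 FPKM at day 0, 4.12 ± 0.27 FPKM at day 3 and 4.76 ± 1.05 FPKM at day 21, and was called higher at both times against day 0 (adjusted p = 0.019 and 0.0112). The day 3 call was lost without day 0 replicate 2 (0.0709), day 0 replicate 3 (0.0656), day 3 replicate 2 (0.0629) or day 3 replicate 3 (0.0652). Col9a2 averaged 2.66 ± 0.275, 3.31 ± 0.0496 and 3.29 ± 0.726 FPKM in the same order of days and was not called. The ratio of Col9a3 to Col9a2 was 0.961 to 1.07 at day 0, 1.16 to 1.29 at day 3 and 1.44 to 1.45 at day 21, with no overlap. Col9a1 stayed at or under 0.318 FPKM.

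Bone and cartilage markers were mixed: of 5 tested of 7, 0 rose and 2 fell at day 3, and 3 rose and 1 fell at day 21 against day 0. They summed to 8.67 to 9.60 FPKM at day 0, 5.46 to 6.14 FPKM at day 3 and 9.41 to 13.6 FPKM at day 21. Of 3 tendon markers 2 fell at day 3 and 0 were called at day 21, with sums of 6.51 to 7.93, 2.95 to 4.70 and 4.58 to 9.30 FPKM. All 6 skeletal muscle markers rose at day 21 against day 0 and 3 fell at day 3, with sums of 12.6 to 16.7, 5.86 to 6.26 and 102.7 to 172.9 FPKM. Col22a1, which marks muscle and tendon junctions, stayed at or under 0.462 FPKM. The part of these tissues in the collagen values was not tested.

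Among the remaining classes, Col8a1 and Col28a1 had log2 fold changes above 4 at day 3 against day 0. Col8a1, a network chain of vessel walls and of the membrane under the corneal endothelium, had 0.342, 0.385 and 0.4 FPKM at day 0, 9.77, 9.51 and 10.1 FPKM at day 3, and 4.22, 3.43 and 4.05 FPKM at day 21. Day 3 libraries were highest, day 21 libraries intermediate and day 0 libraries lowest. Against day 0 it rose by 4.65 (SE 0.15, edgeR adjusted p = 8.89e-08) on the log2 scale at day 3 and by 3.26 (SE 0.15, edgeR adjusted p = 1.35e-06) at day 21. Its partner Col8a2 averaged 0.874 ± 0.138 FPKM at day 0, 2 ± 0.124 FPKM at day 3 and 2.36 ± 0.168 FPKM at day 21. The ratio of Col8a1 to Col8a2 was below 1 in every day 0 library, at 0.383 to 0.549, and above 1 in every injured library, where it spanned 4.59 to 5.37 (day 3) and 1.35 to 1.91 (day 21).

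Col28a1 (ENSMUSG00000068794, chr6:7997808-8192617, minus strand) encodes a chain with von Willebrand factor domains that in mouse peripheral nerve lies around Schwann cells. It had 0.256, 0.189 and 0.191 FPKM at day 0, 18.8, 20.4 and 18.1 FPKM at day 3, and 1.62, 0.967 and 1.5 FPKM at day 21. Day 3 libraries were far above all others, and day 21 libraries lay between them and day 0. Its log2 fold change at day 3 against day 0, 6.42 (SE 0.24, edgeR adjusted p = 1.79e-07), and that at day 21 against day 3, -3.87 (SE 0.21, edgeR adjusted p = 6.68e-06), were the largest in size of all tested chains. A log2 fold change of 2.54 (SE 0.23, edgeR adjusted p = 7.21e-05) was found at day 21 against day 0. All 8 Schwann cell markers rose at day 3 and 6 at day 21 against day 0, and 7 fell at day 21 against day 3, with sums of 160.2 to 195.4 FPKM at day 0, 641 to 653.8 FPKM at day 3 and 286.9 to 359.4 FPKM at day 21. None was at 0 in any library, and their part in the Col28a1 values was not tested.

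Col7a1, the chain of anchoring fibrils in skin, averaged 0.173 ± 0.0662 FPKM at day 0, 1.81 ± 0.0902 FPKM at day 3 and 0.498 ± 0.178 FPKM at day 21, with log2 fold changes of 3.35 (SE 0.32, edgeR adjusted p = 3.47e-05) at day 3 against day 0 and -1.94 (SE 0.29, edgeR adjusted p = 0.00156) at day 21 against day 3.

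**Figure D4:**
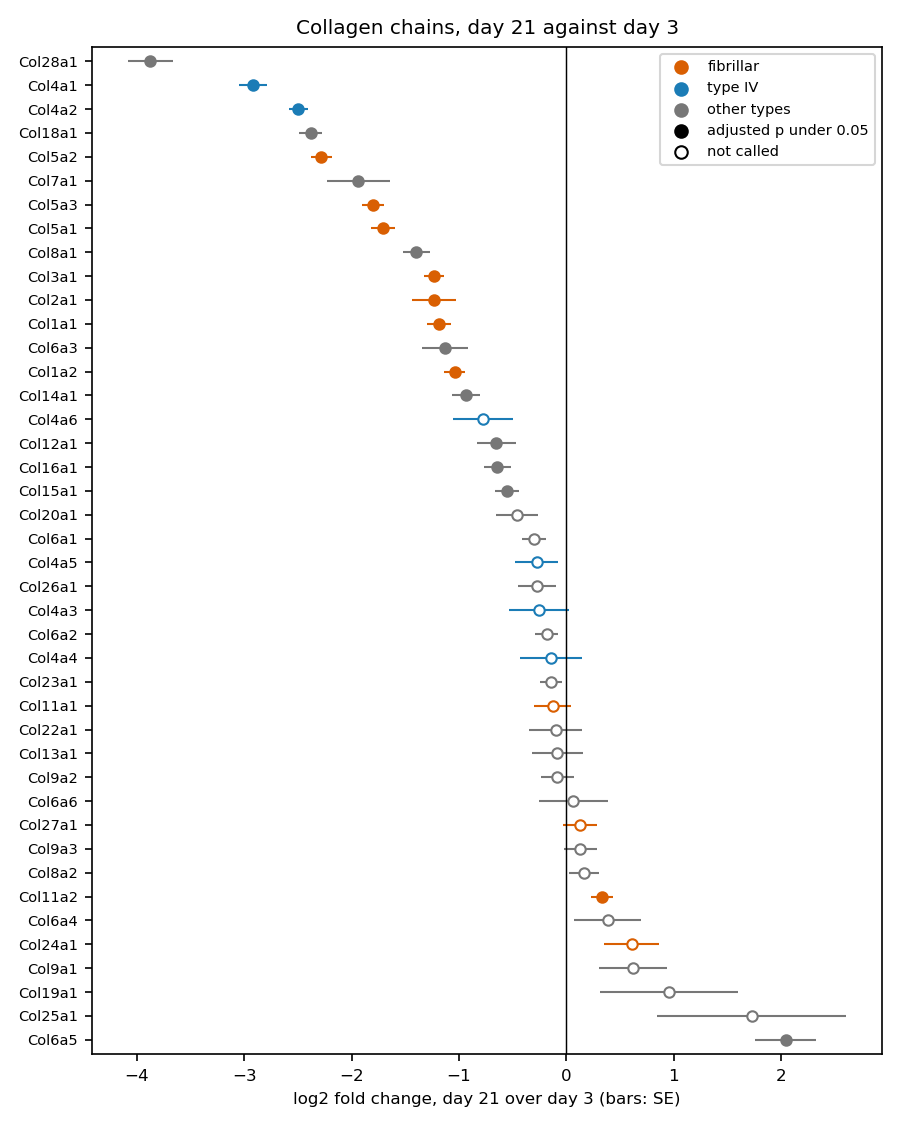
Fitted log2 fold change of day 21 over day 3 for the 42 tested chains, with SE as bars. Filled points passed an edgeR adjusted p under 0.05, and colours give fibrillar, type IV and other types. Col28a1, Col4a1 and Col4a2 lie furthest left, and Col6a5 lies furthest right.

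The membrane-spanning chains formed the class with the smallest change in summed FPKM. Col23a1 had 5.8, 6.37 and 6.12 FPKM at day 0, 8.73, 8.48 and 8.48 FPKM at day 3, and 8.44, 7.71 and 8.29 FPKM at day 21. It rose at day 3 against day 0 by 0.44 (SE 0.10, edgeR adjusted p = 0.00719) on the log2 scale, and its log2 fold change at day 21 against day 0 was 0.29 (SE 0.10, edgeR adjusted p = 0.0589), called without day 21 replicate 2 (adjusted p = 0.00553). The class took 10.5 ± 0.482% of collagen FPKM at day 0, 1.40 ± 0.0565% at day 3 and 3.52 ± 0.556% at day 21. Col13a1, a chain of the neuromuscular junction, rose at both times against day 0 and did not pass 1.19 FPKM in any library.

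Col25a1, made by neurons and needed in mice for motor axons to grow into muscle, had 1.88, 1.12 and 1.8 FPKM at day 0, 0.742, 0.265 and 0.236 FPKM at day 3, and 2.04, 0.0841 and 2.15 FPKM at day 21. Day 3 libraries lay below day 0 libraries, while at day 21 replicates 1 and 3 lay above the day 0 range and replicate 2 far below it. The log2 fold change at day 3 against day 0 was -2.0 (SE 0.88, edgeR adjusted p = 0.0951) in all 9 libraries and -2.01 without day 21 replicate 2 (adjusted p = 0.0078). Between the injured times, day 21 against day 3, it was 1.73 (SE 0.88, edgeR adjusted p = 0.182), and 2.28 without day 21 replicate 2 (adjusted p = 0.00842).

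Col19a1, which interneurons make in mouse brain, had 0.43, 0.477 and 0.391 FPKM at day 0, 0.277, 0.285 and 0.257 FPKM at day 3, and 0.64, 0.0702 and 0.954 FPKM at day 21, and showed the same low value in day 21 replicate 2. It was not called in all 9 libraries (adjusted p = 0.405, 0.805 and 0.308 for day 3 against day 0, day 21 against day 0 and day 21 against day 3). Without day 21 replicate 2, Col19a1 was called in all 3 comparisons, with log2 fold changes of -0.712, 0.769 and 1.48 (adjusted p = 0.0103, 0.00998 and 0.000301), beside -0.71, 0.25 and 0.96 in all 9 libraries. Neuron markers summed to 1822.4 to 1826 FPKM at day 0, 924.2 to 937.6 FPKM at day 3 and 1203 to 1278 FPKM at day 21, and 5 of 5 fell at day 3. Of these neuron markers, 4 fell and 0 rose at day 21 against day 0, with a median log2 fold change of -0.64. Astrocyte markers (4 of 5 higher and 1 lower at day 3) summed to 753 to 776.8, 2361.2 to 2369.6 and 1918.1 to 2184.5 FPKM. At day 21 against day 0, 2 of the 5 astrocyte markers were higher and 0 lower. Their median log2 fold change there was 0.116, and the highest was 1.48 for Gfap. Oligodendrocyte markers (4 of 5 lower at day 3) summed to 1150.6 to 1264.6, 910.5 to 922.9 and 1072.1 to 1129.6 FPKM. No marker of these lists was at 0 in any library, and their part in the values of Col25a1 and Col19a1 was not tested.

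Of the 13 chains under 1 FPKM by group mean, 7 were called at day 3 against day 0 (Col4a3, Col4a4, Col6a5, Col9a1, Col13a1, Col22a1 and Col24a1), all higher. Col6a4, Col6a6, Col19a1 and Col26a1 were not called, and Col10a1 and Col17a1, at or under 0.178 FPKM in every library, were not tested. Some of the calls were lost on leaving out 1 library. Col24a1, a minor fibrillar chain, lost its day 3 call (adjusted p = 0.0387) on leaving out any 1 of day 0 replicates 1, 2 and 3, day 3 replicates 1 and 2 or day 21 replicate 1, with adjusted p up to 0.125. Col9a1 (adjusted p = 0.0412) lost it without any 1 library of day 0 or day 3 or without day 21 replicate 1, with adjusted p up to 0.174. Col22a1 lost it without day 0 replicate 1 (0.0584) or day 3 replicate 1 (0.0521), and its day 21 call on leaving out any of 7 libraries, with adjusted p up to 0.11.

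**Figure D5:**
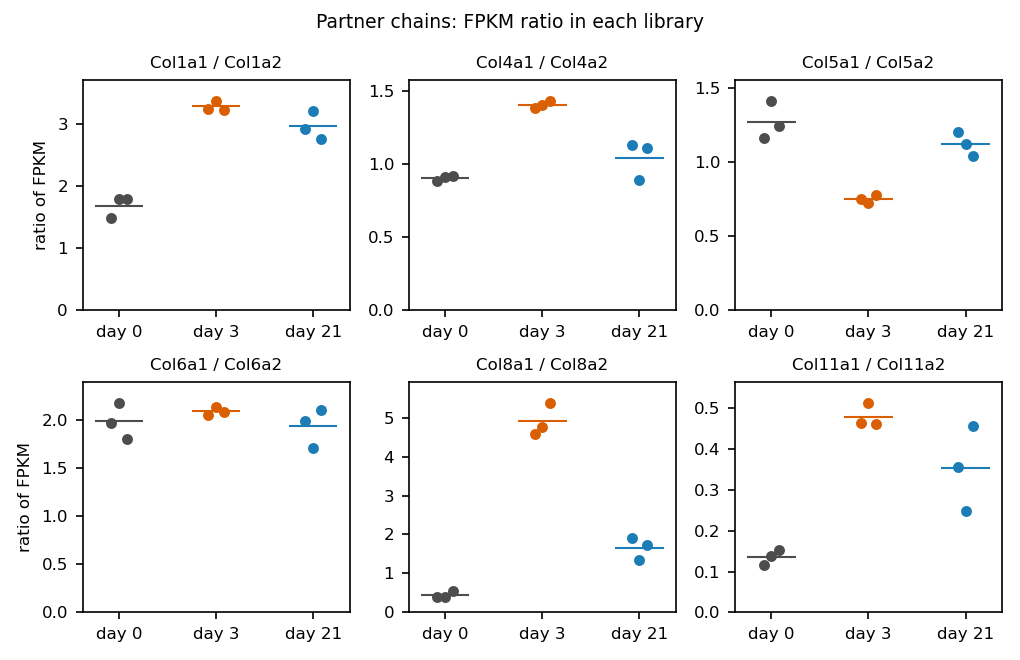
FPKM ratio of 6 pairs of partner chains in each library (points) with group means (lines) at day 0, day 3 and day 21, each axis starting at 0. The ratio of Col6a1 to Col6a2 overlaps between days, while Col1a1 to Col1a2, Col8a1 to Col8a2 and Col11a1 to Col11a2 are higher in all injured libraries than at day 0.

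Genes that make, process and bind collagen were followed in further lists. Procollagen is hydroxylated and folded in the endoplasmic reticulum, and of 18 such genes 16 rose and 0 fell at day 3 against day 0 (median log2 fold change 1.32), 12 rose and 0 fell at day 21 against day 0 (0.509), and 0 rose and 14 fell at day 21 against day 3 (-0.753). Serpinh1, the collagen chaperone, averaged 105.6 ± 3.11 FPKM at day 3, against 10.7 ± 3.33 FPKM at day 0, with a log2 fold change of 3.25 (SE 0.21, edgeR adjusted p = 3.42e-06). Plod2, which hydroxylates lysines of the chain ends, rose by 2.2 (SE 0.16, edgeR adjusted p = 7.1e-06) at day 3 against day 0. P3h1, a prolyl 3-hydroxylase, fell by 1.55 (SE 0.19, edgeR adjusted p = 0.000465) at day 21 against day 3.

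Of 13 genes that trim procollagen or crosslink fibrils, 9 rose and 1 fell (Adamts3, a propeptidase) at day 3 against day 0, 7 rose and 0 fell at day 21 against day 0, and 0 rose and 9 fell at day 21 against day 3, with medians of 2.43, 1.25 and -0.901. Lox, the lysyl oxidase that starts crosslinks, averaged 17.8 ± 0.558 FPKM at day 3, against 0.406 ± 0.0389 FPKM at day 0, and 2.04 ± 0.438 FPKM at day 21. The fitted log2 fold change was 5.4 (SE 0.20, edgeR adjusted p = 1.65e-07) at day 3 against day 0 and -3.2 (SE 0.18, edgeR adjusted p = 7.41e-06) at day 21 against day 3, beside -1.18 for Col1a1. Loxl2 rose by 3.99 (SE 0.16, edgeR adjusted p = 2.46e-07) at day 3 against day 0. Pcolce, which helps remove the C-propeptide, averaged 9.57 ± 2.75 FPKM at day 21, against 1.92 ± 0.0537 FPKM at day 0, with a log2 fold change of 2.18 (SE 0.18, edgeR adjusted p = 3.82e-05).

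Of 9 tested export genes of 10, 3 rose and 2 fell at day 3 against day 0, shares close to the 24.8% and 19.5% of all tested genes. At day 21 against day 0, 1 rose and 1 fell, and 0 rose and 3 fell at day 21 against day 3, with medians of 0.015, 0.015 and -0.144. Creb3l1, a factor that turns on collagen secretion genes in bone, averaged 16.3 ± 0.2 FPKM at day 3, against 1.95 ± 0.236 FPKM at day 0, with a log2 fold change of 3.01 (SE 0.20, edgeR adjusted p = 3.64e-06). Sec24d, a coat protein for large cargo, rose by 1.61 (SE 0.18, edgeR adjusted p = 0.000107) at day 3, and Klhl12, a ubiquitin ligase adaptor for large carriers, fell by 0.73 (SE 0.15, edgeR adjusted p = 0.00386).

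Leucine-rich proteoglycans, which bind fibrils and space them, all rose: 9 of 9 tested of 10 at each time against day 0, with medians of 2.17 and 2.38, and 2 rose and 3 fell at day 21 against day 3, with a median of -0.003. Dcn, which encodes decorin, averaged 216.4 ± 3.66 FPKM at day 3 against 17.7 ± 0.245 FPKM at day 0, and 141.7 ± 21.6 FPKM at day 21. Decorin had a log2 fold change of 3.56 (SE 0.12, edgeR adjusted p = 9.39e-08) at day 3 against day 0. Aspn, asporin, was higher at day 21 than at day 3, with a log2 fold change of 2.08 (SE 0.21, edgeR adjusted p = 0.000146), whereas Bgn, biglycan, fell by 1.45 (SE 0.12, edgeR adjusted p = 6.11e-05).

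Of 10 tested collagen receptors 8 rose and 0 fell at day 3 against day 0, 4 rose and 1 fell at day 21 against day 0, and 0 rose and 7 fell at day 21 against day 3, with medians of 1.61, 1.07 and -0.582. Ddr2, a tyrosine kinase that binds fibrillar collagen, rose by 2.65 (SE 0.21, edgeR adjusted p = 1.21e-05) on the log2 scale at day 3 and by 1.84 (SE 0.21, edgeR adjusted p = 0.000272) at day 21, both against day 0. Mrc2, which takes up collagen fragments, rose by 2.67 (SE 0.15, edgeR adjusted p = 1.17e-06) at day 3 and by 2.24 (SE 0.14, edgeR adjusted p = 8.75e-06) at day 21.

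Of 10 genes that break collagen down, 7 rose and 1 fell at day 3 against day 0, 7 rose and 2 fell at day 21 against day 0, and 1 rose and 5 fell at day 21 against day 3, with medians of 2.64, 1.63 and -0.495. Mmp14, the membrane collagenase, averaged 28.6 ± 0.931 FPKM at day 3 against 5.62 ± 0.116 FPKM at day 0, with a log2 fold change of 2.29 (SE 0.13, edgeR adjusted p = 1.21e-06). Ctsk, cathepsin K, averaged 14.5 ± 4.7 FPKM at day 21 against 4.88 ± 0.695 FPKM at day 0, with a log2 fold change of 1.44 (SE 0.21, edgeR adjusted p = 0.00119). Mmp9, a gelatinase of neutrophils and macrophages, had a log2 fold change of -1.22 (SE 0.11, edgeR adjusted p = 5.64e-05) at day 21 against day 0. Mmp3, stromelysin, had 0 counts in all 3 day 0 libraries, 13, 17 and 13 counts at day 3 and 28, 46 and 37 counts at day 21. Against a floor of 3 counts over the day 0 group, it was at least 16.8-fold higher at day 3 and at least 47.6-fold higher at day 21, and with Mmp3 at these bounds the medians of the list against day 0 stayed at 2.64 and 1.63.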

How the data were processed

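RNA of 9 mouse spinal cord libraries, 3 each at day 0, day 3 and day 21 after complete transection at T9, was measured by poly-A selected paired-end sequencing, per the labels' protocols. HISAT2 and StringTie, both without a version, and the human build GRCh38 stand in the submitters' processing notes. The loci in the deposited table are those of mouse build GRCm38: 27759 of 34344 gene IDs shared with GENCODE M21 and 42 of 44 collagen chains had the same locus. Neither the annotation nor the strand setting of the counting is given in the sources used here.

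Per the file headers, the deposited columns are counts and FPKM of each library. The counts are whole numbers without normalization, and the FPKM values, scaled by the authors to gene length and library total, served for levels, sums and ratios. Counts were tested with edgeR 4.0.16 in R 4.3.3, using TMM scaling, the default filter and quasi-likelihood fits with the robust option. A single fit held all 9 libraries (6 residual degrees of freedom, common coefficient of biological variation 0.205), two-sided, with Benjamini-Hochberg adjustment over 16494 genes. The SE is the log2 fold change over the square root of F. FPKM is given as mean ± SD over 3 libraries.

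The chains, their classes, 7 pathway lists and 12 marker lists were chosen with earlier results of these data known, so list counts carry no test. Chains of at least 5 FPKM in a group are given in every library, chains of 1 to 5 FPKM by means, and others by range, except Col25a1, Col6a5 and Col19a1, given in every library after their values were seen. From other lists up to 4 called genes with the largest change and at least 1 FPKM could be named. Of the chains 13 shared some exon bases with another gene, 0 over more than 20%. No library pair of a group was identical or within counting noise. Alternatives were DESeq2 1.42.0, limma 3.58.1 on log2 FPKM, other scalings and filters, a fit of only 2 groups, a replicate block, and fits without each library in turn. The fits were checked on simulated counts. These gave every gene the same coefficient of biological variation and held far fewer changed genes than were called here. The simulated shares may therefore differ from those of the real fits. Of simulated 1.5-fold changes 5.97 to 13.4% were called, of 2-fold changes 64.2 to 67.2% and of 4-fold changes 98.5 to 100%. A gene that was not called may therefore still have changed, even by 2-fold. Unchanged genes made up 2.56 to 5.04% of the simulated calls.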

Additional observations from a re-analysis of the deposited data

How the results depend on the processing

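Under 133 of 150 alternatives for the chain counts and the class ratio, the value kept its direction and lay within 1.5 times the value reported, or within the spread between replicates for the ratio. In all 22 settings, 26 chains were called higher at day 3 and 25 at day 21 against day 0, and 17 lower at day 21 against day 3. Leaving out 1 library gave 31 to 38 chains higher and 0 to 3 lower at day 3, 29 to 36 higher and 0 lower at day 21, and 1 to 5 higher and 17 to 21 lower at day 21 against day 3. The number lower at day 3 was 3 in a fit of the 2 groups alone and 2 without day 0 replicate 1 and day 21 replicate 2, a setting chosen after seeing the data. The number higher at day 21 against day 3 was 1 with no filter, with a filter of 1 FPKM, with the 2 groups alone and with the replicate block, and 5 without those 2 libraries. The cause was not tested.

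The log2 difference in the fibrillar to type IV ratio without Col1a1, Col1a2 and Col3a1 was -0.703 for day 3 against day 0 and 0.576 for day 21 against day 0. Of the fibrillar chains then left, Col11a2 had the highest FPKM at day 0, and it was not called against day 0 at either time. Over 93 log2 fold changes of single chains and 1950 alternatives, 1880 stayed on their side of the threshold, 31 lost a call, 31 gained one and 8 changed sign, none of these called. Leaving out 1 library, these ran between -0.000288 and 0.265 (Col9a2) and between -0.698 and 0.274 (Col25a1) at day 21 against day 0. At day 21 against day 3 they ran between -0.257 and 0.045 (Col11a1), -0.26 and 0.00424 (Col9a2), and -0.045 and 0.217 (Col9a3). Without both libraries Col25a1 was at 0.388, Col11a1 at 0.062 and Col9a3 at -0.027 in those comparisons.

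Scaling by library totals alone shifted the median of all genes at day 21 against day 0 by 0.124, with 76.8% of calls higher, against 61.3% with TMM, 73.2% with limma on log2(FPKM + 1), 72.5% with the 2 groups alone and 52.9% without day 21 replicate 2. No pairing was seen by replicate number: correlations of same-numbered deviations ran between -0.17 and 0.133, with 1 of 9 over 0.1. Deviations from the mean of 3 libraries depend on one another, so these values cannot exclude a pairing. The highest correlation of any pair was 0.262, between day 0 replicate 1 and day 21 replicate 2, the libraries that stood apart. Its cause was not tested. With the replicate block the chain counts were 33 higher and 0 lower at day 3, 30 and 0 at day 21, and 1 and 18 at day 21 against day 3.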
